A study of Arabidopsis thaliana with 6 samples.

Results

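AT1G74450, AT5G10695, AT1G32920 and AT2G17660 are 4 little-studied genes of Arabidopsis thaliana, chosen by their signal on these arrays, which earlier results had shown to be higher in hydrated pollen or pollen tubes than in dry pollen. They were found by locus name, 1 probe set each (260227_at, 246018_at, 261193_at and 264617_at), among the 13355 genes that a single-gene probe set could be paired with. Their levels and their differences between stages therefore describe the choice and are given without a test. Affymetrix ATH1 arrays, on which biotin-labelled cRNA binds sets of short probes, had been hybridised with pollen of the Columbia ecotype from plants 50 days old, 2 arrays per stage and 6 in all. Mature pollen was vacuumed dry from open flowers. Hydrated pollen was vortexed off flowers for 2 min in a medium with 15% sucrose, centrifuged, and kept as a thin film at 25 °C for 45 min. Pollen tubes were made in the same way but kept for 4 h, by when tubes averaged about 150 µm, and were held back on a 50 µm mesh that let ungerminated grains through. No genotype differed between stages, and the design text calls the replicates biological. Collection, medium and handling differed between mature pollen and both later stages. For every difference from mature pollen, stage and handling therefore cannot be told apart. Between hydrated pollen and tubes, the time in medium (45 min against 4 h) and the mesh also differed. Tube growth, time and retention on the mesh cannot be told apart there.

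A pollen grain is shed dry and nearly inactive, takes up water on a stigma or in medium, and puts out a tube that grows at its tip. Much of the protein made at that time is known to come from transcripts stored before shedding, while other transcripts accumulate anew. AT1G74450 encodes a protein of the DUF793 family, also called BPS1-like, to which ROH1, a partner of the exocyst secretion complex, belongs. Its transcript is known to respond to several stresses in seedlings, and its overexpression is known to reduce plant height and male fertility. AT2G17660 encodes a small protein of the RIN4 family, whose namesake is a membrane-bound immune regulator guarded by resistance proteins. The AT1G32920 transcript is known to respond to wounding in leaves, and no function of its protein is given here. AT5G10695 encodes a protein for which no role is given here.

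Levels are signal in arbitrary units as deposited, and fold changes and differences compare a probe set with itself on another array. The percentage of probe sets that were brighter gives the position of a signal on its array. Array medians lay between 14 and 24.4, and the 60th percentile of each array, taken as its limit of background, between 19.7 and 34.1. Of 8 named pollen markers, 7 passed the filter on dim probe sets. None passed by limma in any of the 3 comparisons, where at most 1 had an unadjusted p under 0.05. The abundant pollen transcript AT5G45880 lay between 17211.3 and 31264.3. Not all were steady in tubes against mature pollen. PLIM2a was lower without overlap (log2 difference -1.03 ± 0.31, adjusted p = 0.0749), as was MGH3 (-0.77 ± 0.40, adjusted p = 0.346). AT1G49490 was higher by 0.16 ± 0.53. ADPG1 did not pass the filter and was above the limit on no array. Markers of leaf, nectary, floral organs and tapetum had 6 named members of 16 listed, and none read above 50.8 on any array. That is above the limit, so other tissue is not shown to be absent. Of the 6, 3 passed the filter and 2 were above the limit on no array. SWEET9 exceeded it on both mature arrays (48.8 and 25.8) and SPT on both tube arrays (50.8 and 25.6). The summed signal of those 6 ran from 94.6 to 117.0 in mature pollen, from 72.0 to 92.5 in hydrated pollen and from 49.7 to 179.4 in tubes, and the epidermal markers listed were unnamed here. Replicate arrays correlated with r between 0.929 and 0.945 over probe sets averaging more than 200, a correlation across genes, which are not independent replicates. In a mixture of vegetative and sperm cells, fewer cells of a type and less RNA per cell cannot be told apart.

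All 4 genes were dimmest in mature pollen, intermediate in hydrated pollen and brightest in tubes, with no overlap between the arrays of neighbouring stages. Of all 11412 tested probe sets, 441 had this order without overlap, a background of 3.86%, and nothing is read from the members' count because the choice used the same arrays. Testing required a signal over the limit on 2 or more arrays of any stage, and all 4 genes passed. AT1G74450 and AT1G32920 passed only through hydrated pollen and tubes, since neither was above that limit on a mature array.

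AT1G74450 had a signal of 5.8 and 13.5 on the mature arrays, 1213.2 and 2978.1 on the hydrated arrays and 3301.7 and 5098.7 on the tube arrays. Both mature values lay below the limit of their arrays, 34.1 and 25.1. The gene thus moved between mature and hydrated pollen out of the dimmer part of the array, where 78.5% and 56.1% of probe sets were brighter, into a range where 3.76% and 2.17% were. In tubes 1.68% and 1.09% were brighter.

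Hydrated pollen was at least 65.0-fold above mature pollen for AT1G74450, and tubes at least 140-fold. These bounds set the geometric mean of the brighter stage against the limit of the mature arrays, and leave out the spread between arrays. The measured log2 difference between hydrated and mature pollen was 7.75 ± 0.52 (SE), the highest of the 11412 tested probe sets, and partly rests on how far below the limit the mature arrays read. At the tube step, between tubes and hydrated pollen, the log2 difference was 1.11 ± 0.52.

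AT5G10695 was above background at every stage, at 168.7 and 112.6 in mature pollen, 1952.2 and 967.6 in hydrated pollen and 4391.7 and 2285.1 in tubes. In mature pollen 11.7% and 14.4% of probe sets were brighter, so dry grains already held a measurable level. Hydrated pollen exceeded mature pollen by a log2 difference of 3.32 ± 0.44, which is a 9.97-fold ratio of geometric means. Tubes exceeded mature pollen by 4.52 ± 0.44, a ratio of 23.0. The brighter hydrated array, at 1952.2, came close to the dimmer tube array, at 2285.1.

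AT2G17660 was already well above background in mature pollen, where 6.62% and 7.12% of probe sets were brighter. Its signal was 467.8 and 444.6 in mature pollen, 1531.5 and 1966.7 in hydrated pollen and 4423.1 and 3311.5 in tubes. Replicates were closer than for the other 3 genes, never more than 1.34-fold apart. The hydrated level exceeded the mature level by a log2 difference of 1.93 ± 0.30, or 3.81-fold, and the tube level exceeded it by 3.07 ± 0.30, or 8.39-fold.

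AT1G32920 was 4.71 times the limit on the first hydrated array and 1.28 times on the second, and bright in tubes. It read 11.9 and 3.3 in mature pollen, both below the limit, 129.5 and 30.1 in hydrated pollen, and 2952.5 and 659.8 in tubes. The second hydrated array stood just above its limit of 23.5, and 32.8% of its probe sets were brighter. By geometric means, hydrated pollen was at least 2.13-fold above mature pollen, a bound that leaves out the spread between the hydrated arrays. Tubes were 22.4-fold above hydrated pollen and at least 47.7-fold above mature pollen by the same measure. The log2 difference between tubes and hydrated pollen was 4.48 ± 0.89, and between hydrated and mature pollen 3.32 ± 0.89. With values under the limit set to it, the difference between hydrated and mature pollen was 1.09 ± 0.61.

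**Figure D1:**
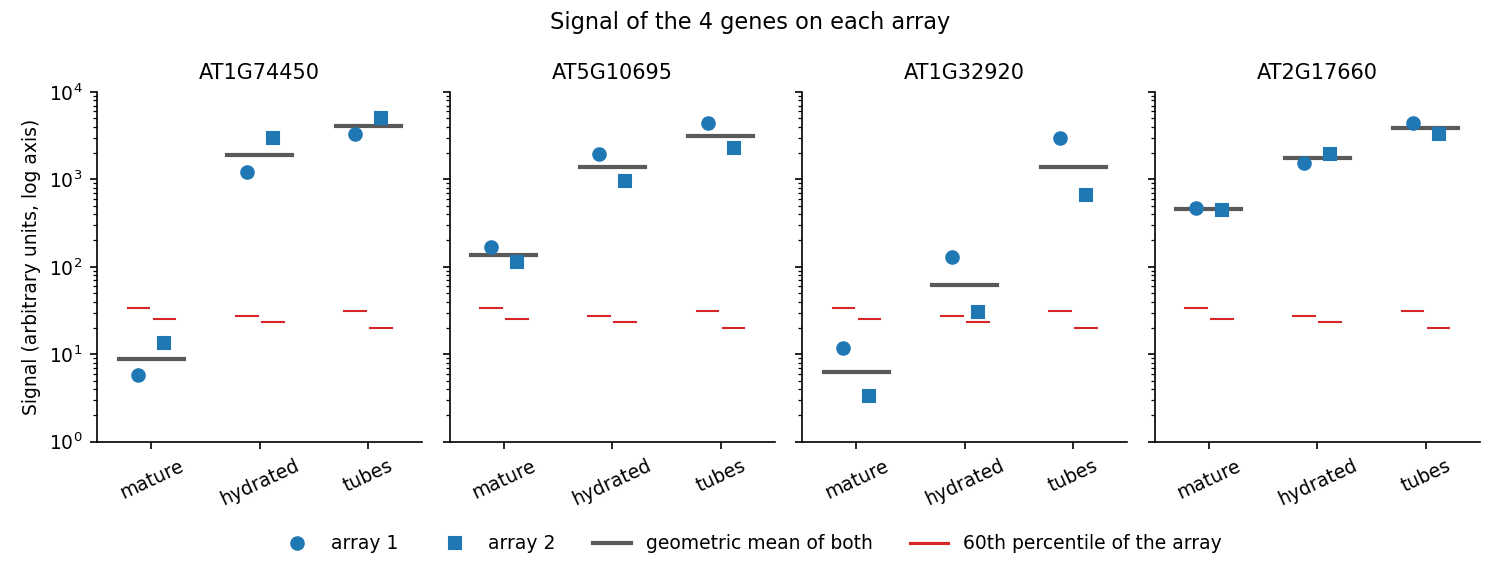
Signal in arbitrary units on a log axis for each of the 4 genes, on arrays 1 (circles) and 2 (squares) of mature pollen, hydrated pollen and tubes. Grey bars are the geometric mean of both arrays and red dashes the 60th percentile of each array. AT1G74450 and AT1G32920 lie below the red dashes in mature pollen, and AT1G32920 reads 30.1 on the second hydrated array, near its limit.

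The share of the whole log2 difference between tubes and mature pollen that was already present in hydrated pollen set the genes apart as a description. It was 87.5% for AT1G74450, 73.4% for AT5G10695 and 62.8% for AT2G17660. AT1G32920 had 42.5%. With values under the limit set to it, AT1G74450 had 84.4% and AT1G32920 19.6%. When each array was left out in turn on this second scale, the share ranged from 75.4% to 93.5% for AT1G74450, from 62.2% to 84.6% for AT5G10695 and from 57.0% to 68.7% for AT2G17660. For AT1G32920 it ranged from 0.74% without hydrated array 1 to 38.5% without hydrated array 2, so on this scale its share rests mostly on array 1. On the signal as deposited, the share of AT1G32920 ranged from 29.0% to 56.0% with the same arrays left out.

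**Figure D2:**
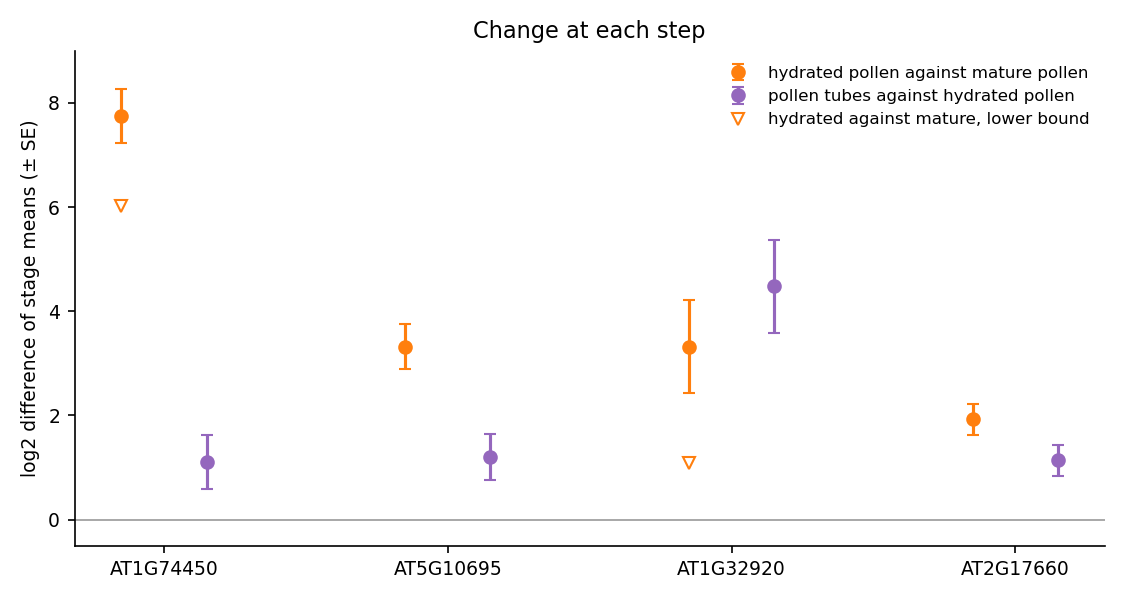
The log2 difference of stage means, with its SE from the limma fit, for hydrated against mature pollen (orange) and tubes against hydrated pollen (purple). Open triangles are lower bounds where the mature arrays were below background. The tube step lies between 1.11 and 1.20 for 3 genes and at 4.48 for AT1G32920.

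Set beside all tested probe sets, the members' median log2 difference was 3.32 between hydrated and mature pollen, beside -0.02, and 6.16 between tubes and mature pollen, beside -0.12. Both comparisons used the mature arrays that the choice rests on, so these medians describe the choice.

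The tube step shares the hydrated arrays with the comparison above, and the choice drew on all 6 arrays, so it too is given without a test. The log2 difference between tubes and hydrated pollen was 1.20 ± 0.44 for AT5G10695 and 1.14 ± 0.30 for AT2G17660, beside 1.11 for AT1G74450 and 4.48 for AT1G32920. In each of the 4 genes both tube arrays were brighter than both hydrated arrays, as they were in 20.0% of all tested probe sets, and nothing is read from that count.

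**Figure D3:**
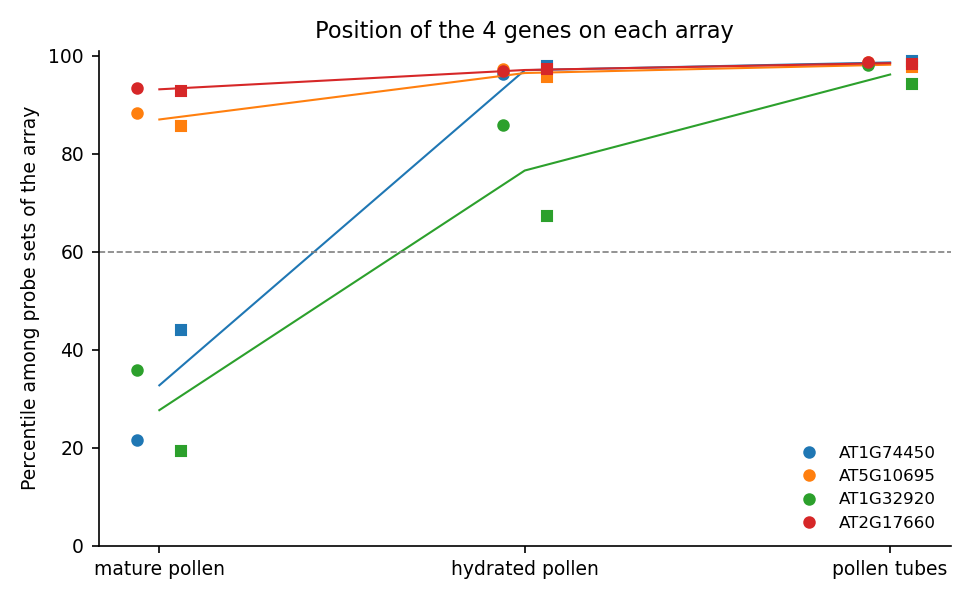
Percentile of each gene's signal among all probe sets of an array, for array 1 (circles) and array 2 (squares), with lines through the stage means and a dashed line at the 60th percentile. By the tube stage every gene is above the 94th percentile, and on the hydrated arrays AT1G32920 is at 85.9 and 67.2.

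Relatives of 2 of the genes were on the array under a name, in lists drawn from general knowledge of the families after the table had been opened. Among 6 listed DUF793 genes, 4 were named and tested. AT1G43630 was above the limit on every array and went the opposite way, with 1318.1 and 1138.5 in mature pollen, 628.2 and 625.5 in hydrated pollen and 353.5 and 447.2 in tubes. In tubes against mature pollen it fell by 1.62 ± 0.30 on the log2 scale (adjusted p = 0.00738), where 3.29% of all tested probe sets fell. Without tube array 1 this call was lost (adjusted p = 0.108). It did not pass at either single step (adjusted p = 0.446 in hydrated against mature pollen and 0.339 at the tube step). AT1G18740 and AT4G11300 stayed between 1.8 and 54.1 on all arrays, and neither passed in any comparison. ROH1 and AT4G23530 were unnamed here.

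Among 8 listed RIN4 family genes, 4 were named and tested. AT3G48450 read 5845.5 and 3881.1 in mature pollen, 5015.7 and 3360.6 in hydrated pollen and 3311.9 and 1672.1 in tubes. AT2G04410 averaged 2988 ± 743 on mature arrays, 3273 ± 1146 on hydrated arrays and 2037 ± 405 on tube arrays (SD, n = 2). AT5G40645 averaged 604 ± 400 on mature arrays, 333 ± 175 on hydrated arrays and 1158 ± 608 on tube arrays (SD, n = 2). None of these 3 passed in any comparison, with adjusted p between 0.118 and 0.993. For hydrated against mature pollen their log2 differences were between -0.79 and 0.11, beside 1.93 for AT2G17660, and the difference between relatives was not tested. RIN4 itself and NOI were unnamed here.

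**Figure D4:**
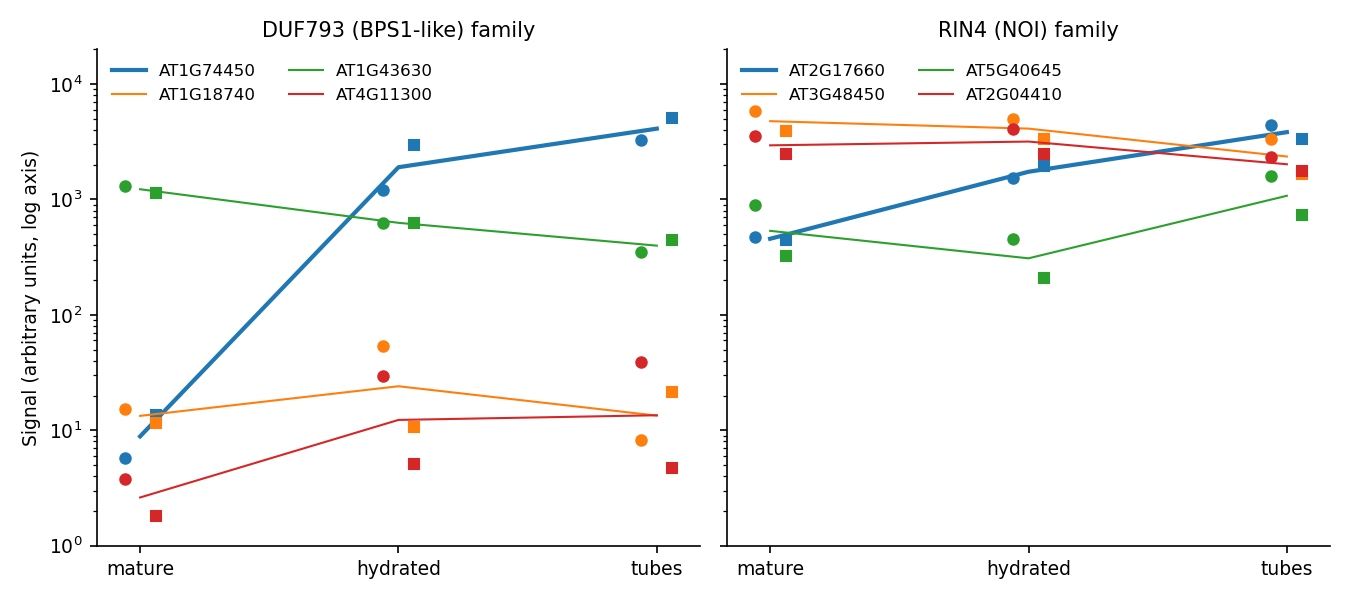
Signal in arbitrary units on a log axis for the named DUF793 genes (left) and RIN4 family genes (right), arrays 1 (circles) and 2 (squares), with lines through the geometric mean of each stage. AT1G74450 and AT2G17660, in thick lines, climb from mature pollen to tubes, while AT1G43630, with 353.5 to 1318.1, declines.

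Early touch, wound and elicitor genes, with which stress-responsive genes such as AT1G74450 are often reported, were listed from general knowledge. The list was drawn up with earlier results of these data known, so its calls describe these genes and are no independent test. Of 47 listed, 8 were named and 5 tested, so most of the list is not covered. In hydrated against mature pollen 1 rose, 0 fell and 4 did not pass. The median log2 difference of the 5 was 3.72, beside -0.02 over all tested probe sets. It was the value of PUB22, whose mature arrays, at 2.6 and 8.5, were below the limit, and whose lower bound was 1.08. PUB22 and PUB23 passed the filter only through hydrated pollen and tubes, so the counts of rises here follow partly from the filter. At the tube step 1 rose and 4 did not pass, and between tubes and mature pollen 3 rose and 2 did not pass. Over all tested probe sets the shares in these comparisons were 0.526%, 2.54% and 4.61% for rises and 0.0526%, 2.03% and 3.29% for falls.

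AT1G76640, a calmodulin-like protein, was the riser at hydration, at 6555.1 and 4098.0 in hydrated pollen against 278.3 and 190.2 in mature pollen (4.49 ± 0.37, adjusted p = 0.000419). It then had 12942.3 and 7561.6 in tubes, and its tube step of 0.93 ± 0.37 did not pass (adjusted p = 0.253). PUB23, a U-box ubiquitin ligase, was the riser at the tube step (4.47 ± 0.73, adjusted p = 0.00642), with 2503.7 and 3879.6 in tubes against 119.1 and 166.0 in hydrated pollen. Its call was lost without hydrated array 1, tube array 1 or tube array 2 (adjusted p between 0.0615 and 0.0905). The tube step of AT1G32920 was 4.48, and both genes were below the limit in mature pollen. PUB22, a close relative of PUB23, had 249.2 and 162.7 in tubes against 65.5 and 58.6 in hydrated pollen, and its tube step did not pass (1.70 ± 0.71, adjusted p = 0.277). In hydrated against mature pollen both were higher and narrowly missed the threshold. PUB23 had 3.82 ± 0.73 (adjusted p = 0.0571) and PUB22 3.72 ± 0.71 (adjusted p = 0.0549). Between tubes and mature pollen AT1G76640, PUB22 and PUB23 rose. The lower bound of that log2 difference, against the limit of the mature arrays, was 2.78 for PUB22 and 6.74 for PUB23. CML38, a calmodulin-like protein, and PUB24 passed in no comparison.

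The named genes nearest to each of the 4 in profile were sought among 6510 other named and tested probe sets. Distance was the root mean square difference of log2 signal, centred on its mean over the 6 arrays. The median distances given cover candidates of every direction of change, so they do not show how near other rising genes were. For AT1G74450 the nearest was Hsp70-2, a cytosolic chaperone, at a distance of 1.36 log2 units, beside a median distance of 4.11 over all candidates. Its signal was 12.3 and 10.0 in mature pollen, 344.1 and 419.8 in hydrated pollen and 1000.2 and 777.2 in tubes. AT1G54050, a small heat shock protein, stood at 1.38, and CXE18, a carboxylesterase, at 1.41. The mature arrays of AT1G74450 and of all 3 of these genes were below the limit, so the distances rest partly on values under background.

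For AT5G10695 the nearest was AT1G67360, a lipid droplet protein, at 0.39 beside a median of 2.12. It read 154.8 and 108.4 in mature pollen, 893.1 and 783.3 in hydrated pollen and 3051.5 and 2353.6 in tubes. AT2G20560, a chaperone of the DnaJ type, followed at 0.40, and AT1G03660 at 0.42 with signals of 2.9 to 58.3 in all. The mature arrays of AT2G20560, at 8.0 and 6.6, and of AT1G03660, at 3.1 and 2.9, were below the limit. Both distances thus rest partly on values under background.

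AT1G32920 was nearest to AT1G04770, known as SDI2 for its response to sulphur shortage, at 0.69 beside a median of 3.45. AT1G04770 had 4.5 and 2.5 in mature pollen, 47.4 and 19.2 in hydrated pollen and 565.9 and 459.4 in tubes, and its second hydrated array was below the limit. AT3G59460 stood at 0.88 and AT3G15860 at 0.92. The mature arrays of AT1G32920, AT1G04770, AT3G59460 and AT3G15860 were all below the limit, so these distances rest partly on values under background. For AT2G17660 the nearest were AT4G23470 at 0.21, AT4G30490 at 0.22 and AT1G72800 at 0.26 beside a median of 1.52. AT4G30490 was measured well above background throughout, at 138.0 and 144.0 in mature pollen, 434.7 and 519.4 in hydrated pollen and 901.3 and 1053.9 in tubes. AT4G23470 was above the limit only in tubes, and AT1G72800 read 28.0 on mature array 1, below its limit of 34.1.

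**Figure D5:**
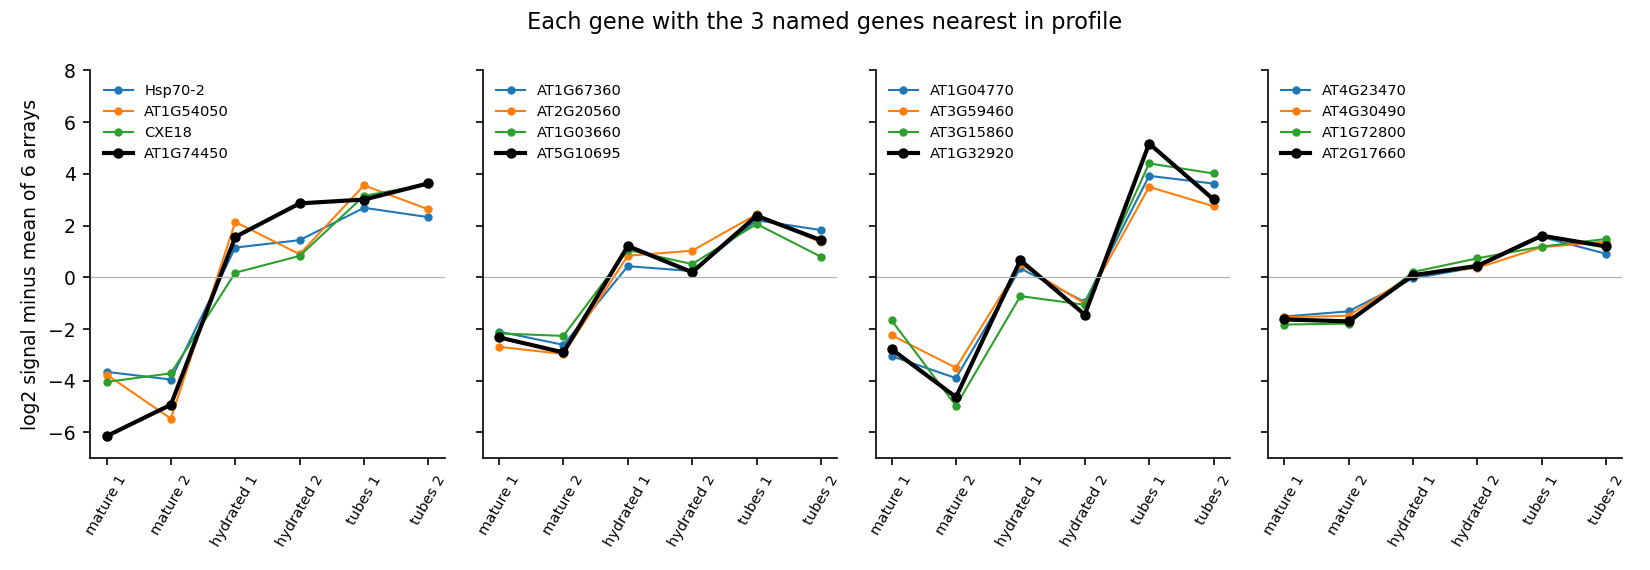
Log2 signal minus its mean over the 6 arrays, for each of the 4 genes (black) and the 3 named genes with the smallest root mean square difference from it (colours). The arrays of a stage have no order, and lines only guide the eye. The distances are 1.36 to 1.41 log2 units for AT1G74450, where mature arrays of all 4 genes shown were below background, and 0.21 to 0.26 for AT2G17660.

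Among the 4 genes themselves, AT5G10695 and AT2G17660 were nearest by this distance, at 0.81 log2 units, and AT1G74450 and AT2G17660 furthest apart, at 2.79. The distance also counts the size of the change, and that of AT1G74450 rests partly on mature values under background. By Pearson's r AT1G74450 and AT2G17660 had 0.951, and the lowest pair was AT1G74450 and AT1G32920 at 0.791. The 4 genes were chosen on these same 6 arrays, so high r between them follows largely from the choice. Ranking candidates by Pearson's r over the 6 arrays instead, which ignores the size of the change, named other genes. It kept none of the 3 for AT1G74450 and AT5G10695, and 1 of 3 each for AT1G32920 (AT3G59460) and AT2G17660 (AT4G23470).

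Genes next to the 4 on the chromosomes, taken by order alone from the TAIR10.1 gene table, were dim on these arrays. Counting 2 protein-coding genes on each side, 9 of 16 were named on the array, and their signals lay between 1.0 and 56.4. Of these 9, 3 were tested and none passed in any comparison, with adjusted p of 0.467 or higher. In that table AT5G10700 overlaps AT5G10695, and it read 42.6 and 34.0 in mature pollen, 56.4 and 36.7 in hydrated pollen and 43.3 and 25.9 in tubes. AT2G17650 overlaps AT2G17660 and read 30.7 or less on every array. None of the 4 neighbours of AT1G32920 was named here.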

How the data were processed

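Transcript levels were measured on 6 ATH1 arrays. The authors deposited linear intensity, with a single value for a probe set on an array. The submitters' processing notes name GCOS 1.0 and MAS5. Each array's mean without its lowest and highest 2% was 100.03 or 100.02, which is what separate scaling to a common target gives. The number of arrays limits the precision.

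The 64 control probe sets among 22810 were left out, values below 0.1 were set to 0.1 (1 value), and log2 was taken. Probe sets above their array's 60th percentile on at least 2 arrays were tested (11412) in 1 limma 3.58.1 fit (R 4.3.3) of 3 stage means with an intensity trend, two-sided, Benjamini-Hochberg over 11412 and a threshold of 0.05. The fit was tested on simulated data. Where a stage had no array above the percentile, its level was replaced by the percentile for a bound. Probe sets were named by the platform annotation with loci from the TAIR10.1 table. The platform's gene number for AT1G32920 is absent from that table and was matched by locus name.

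Members, lists and the rule for named genes were chosen with earlier results of these data known, so no p-value of a member is given. The rule took the members, their relatives, the 3 nearest profiles of each, and listed early response genes that passed. Relatives planned by protein similarity and promoter motifs were not analysed here, as no sequence table was given. Alternatives were quantile normalization, scaling to a common 75th percentile, a floor at the 60th percentile, no filter, no trend, the replicate number as a block, and leaving out each array.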

Additional observations from a re-analysis of the deposited data

How the results depend on the processing

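No alternative reversed any of the 12 differences of the 4 genes (3 comparisons each), but most of the alternatives could not have done so. The settings without filter, without trend and with the replicate block left every difference as it was. Leaving out an array could not reverse any, since the arrays of neighbouring stages did not overlap. It reset a stage mean to its remaining array or changed nothing. Of 144 recomputed log2 differences 140 moved by less than 1 SD between replicates, which speaks of their size and not of any test. The 140 include the values that could not change, and the 4 others were all under the floor. A floor at the 60th percentile brought the log2 difference between hydrated and mature pollen to 6.02 for AT1G74450 and 1.09 for AT1G32920, and that between tubes and mature pollen to 7.13 and 5.58, because it raises the mature values.

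What arrays of one replicate number share is not stated in the sources used here. The deviations of same-numbered arrays from their stage means correlated with r between 0.17 and 0.22 over 11412 probe sets. In the fit with replicate number as a block, the log2 differences of the 4 genes stayed as they were, since each stage holds both numbers, and 421 probe sets changed between hydrated and mature pollen, 1646 at the tube step and 2159 between tubes and mature pollen, beside 66, 522 and 901 without it.

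Without the intensity trend the calls of AT1G43630 (adjusted p = 0.127), of AT1G76640 at hydration (0.193) and of PUB23 at the tube step (0.165) were lost. These alternatives were chosen after seeing the data. Without the trend 0, 0 and 228 changed in the same order, with 731, 1494 and 1885 at an unadjusted p under 0.05. The floor gave 103 and 870 in the first and second comparisons, and the common 75th percentile 301 in the second, 194 upward and 107 downward beside 290 and 232. Leaving out 1 array gave 27 (without hydrated array 2) to 90 (mature array 2), 85 (tube array 1) to 660 (mature array 2) and 349 (tube array 1) to 757 (hydrated array 1). The log2 differences then ranged, for hydrated against mature pollen, from 7.10 to 8.39 in AT1G74450, 2.81 to 3.82 in AT5G10695, 2.26 to 4.37 in AT1G32920 and 1.75 to 2.11 in AT2G17660. At the tube step the ranges were 0.46 to 1.76, 0.70 to 1.71, 3.40 to 5.56 and 0.93 to 1.35. Between tubes and mature pollen they were 8.25 to 9.47, 4.05 to 4.99, 6.72 to 8.88 and 2.86 to 3.28. The causes were not tested.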

Other observations

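The 2 arrays of a stage differed in the same direction at all 3 stages for 3 of the 4 genes. AT1G32920 was brighter on array 1 by 3.61-fold in mature pollen, 4.30-fold in hydrated pollen and 4.48-fold in tubes. AT5G10695 was brighter on array 1 by 1.50-fold, 2.02-fold and 1.92-fold in the same order. AT1G74450 went the other way and was brighter on array 2 by 2.33-fold, 2.46-fold and 1.54-fold. Of all tested probe sets, 27.6% were brighter on array 1 at all 3 stages and 16.7% on array 2, so both patterns were common.

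Within a replicate number the difference of AT1G32920 between hydrated and mature pollen was 3.44 in number 1 and 3.19 in number 2 on the log2 scale, and its tube step was 4.51 and 4.45. For AT1G74450 the differences between hydrated and mature pollen were 7.71 and 7.79, and the tube steps 1.44 and 0.78. These values lie closer together than the arrays of a stage do for AT1G32920.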
